A study of Mus musculus with 12 samples.

Results

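The GIMAP family (GTPases of immunity-associated proteins) was examined in 2 lymphocyte types of the mouse spleen. Its members were taken as the 8 rows of the deposited expression table named Gimap1, Gimap3, Gimap4, Gimap5, Gimap6, Gimap7, Gimap8 and Gimap9. The table holds 41128 genes. The choice went by gene name and by no measured value, though earlier results of these data were known. All 8 were among the 12520 genes tested, those with 3 or more libraries at an adjusted TPM of 1 or above. TPM is a share of transcripts corrected for length, and "adjusted" marks a further scaling between libraries by the authors, so levels of different genes can be set side by side on this scale.

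The RNA came from the spleen of C57BL/6J mice of 6 to 8 weeks, with no mutation or treatment in any group. There were 4 groups of 3 libraries: CD43- resting B cells from females and from males, and CD4+CD62L+ naive T cells from females and from males. The naive T cells had been depleted of other cells on magnetic beads and sorted as CD62L high, CD44 low and CD25 negative, to select naive cells. Replicates were pools of mice, so each spread and each p-value below measures the difference between pools. The tests between B and T cells took all 12 libraries as independent.

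GIMAP proteins carry a guanine nucleotide-binding domain related to that of the septins, and several members sit on membranes of lysosomes, mitochondria, the endoplasmic reticulum or the Golgi. The genes are used mainly in lymphocytes, where the family is known for keeping resting T and B cells alive. Loss of Gimap5 in rats and mice leaves few peripheral T cells, and loss of Gimap1 leaves few mature B and T cells.

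The 8 genes lie side by side on chromosome 6 (GRCm38, the mm10 build), from position 48647234 to 48770851, a span of 123.6 kb. In the order of the chromosome they are Gimap8, Gimap9 and Gimap4 on the plus strand, Gimap6 on the minus strand, Gimap7, Gimap1 and Gimap5 on the plus strand and Gimap3 on the minus strand. The P-loop, the stretch that holds the phosphates of GTP, is the shared feature of the family, and its codons are shown for each member to allow a comparison of the genes at the same place. Each line gives the 24 coding bases of a glycine, any 4 residues, a glycine, a lysine and a serine or threonine, with the codons of the last 3 residues in capitals.

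Gimap1, chr6:48742552-48742575, plus strand: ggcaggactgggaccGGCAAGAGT
Gimap3, chr6:48765887-48765910, minus strand: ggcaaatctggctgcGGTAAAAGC
Gimap4, chr6:48690421-48690444, plus strand: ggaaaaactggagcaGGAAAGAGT
Gimap5, chr6:48752594-48752617, plus strand: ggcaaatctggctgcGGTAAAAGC
Gimap6, chr6:48702750-48702773, minus strand: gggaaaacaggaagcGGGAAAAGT
Gimap7, chr6:48723524-48723547, plus strand: gggaaaacaggaagtGGAAAGAGC
Gimap8, match 1, chr6:48650256-48650279, plus strand: gggaaacagggcgcaGGCAAAAGT
Gimap8, match 2, chr6:48656119-48656142, plus strand: gggaagcgtggtgttGGGAAAAGT
Gimap8, match 3, chr6:48658746-48658769, plus strand: ggaaggagtggggctGGAAAGAGT
Gimap9, chr6:48677523-48677546, plus strand: gggaagactggaaatGGGAAGAGT

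These stretches were found by script in the coding sequences of the GENCODE M21 transcripts. Gimap8 had 3 matches in a coding sequence of 688 codons, and the other 7 members had 1 match each in 291 to 328 codons. Gimap3 and Gimap5 carried the same 24 bases, while the other members differed from them and from each other.

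Gimap3 and Gimap5 were the closest pair of the family. Their coding sequences were identical at 809 of 895 aligned bases (90.4%), whereas the other 20 pairs among the 7 members with 1 P-loop were identical at 55.8% to 67.9% of aligned bases. The 120 coding bases that begin with the P-loop are shown for both to let their likeness be seen, and capitals mark the 3 bases at which they differ.

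Gimap3, chr6:48765791-48765910, minus strand: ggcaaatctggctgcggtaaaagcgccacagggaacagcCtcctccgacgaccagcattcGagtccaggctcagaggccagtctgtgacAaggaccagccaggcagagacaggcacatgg
Gimap5, chr6:48752594-48752713, plus strand: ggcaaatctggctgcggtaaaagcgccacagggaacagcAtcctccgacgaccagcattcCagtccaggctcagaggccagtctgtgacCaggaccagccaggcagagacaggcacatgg

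Of the distinct 50-base stretches in the annotated transcripts, 190 of 2528 (7.52%) of Gimap3 and 190 of 4195 (4.53%) of Gimap5 occur in the other gene of the pair. No other member shared such a stretch with a member. How the authors' quantification divided reads between Gimap3 and Gimap5 is not given in the sources used here, and their levels are uncertain to that extent. The read-through gene Gm28053 has a span that runs from Gimap7 to Gimap5. It shared 149 of 3116 stretches (4.8%) with Gimap1, 105 (2.5%) with Gimap5, 32 (1.4%) with Gimap7 and 8 (0.3%) with Gimap3. Its own level was low, at 2.34 ± 0.480 adjusted TPM in B cells against 1.67 ± 0.446 in T cells (SD, n = 6 each). With other genes, Gimap1 shared 36 stretches (1.16%, Gm10310 and Gm49762), Gimap3 16 (0.63%, Gm38409) and Gimap6 2 (0.06%, Cd63).

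The deposited totals ran from 561020 to 1453940 adjusted TPM per library, and the depth in reads is unknown. A single RNA, Yam1, took 32.16% of the total in female B cell 1 and 37.36% in male T cell 6. The sorted cells carried their defining markers: 5 B cell genes (Cd79a, Cd79b, Ms4a1, Pax5 and Ebf1) summed to between 2325 and 2761 adjusted TPM in B cells but 0.896 to 5.17 in T cells, and 5 T cell genes (Cd3d, Cd3e, Cd3g, Cd4 and Lck) summed to between 1044 and 1328 in T cells and 9.25 to 13.8 in B cells. Markers of regulatory T cells (Foxp3, Ikzf2 and Il2ra, the gene of CD25) were present in the sorted T cells: they summed to 20.97 adjusted TPM in female T cell 6 and 17.19 in male T cell 6, against 1.749 to 3.144 in the other 4 T cell libraries and 0.594 to 1.44 in B cells. Results without those 2 libraries are given for the calls of the members and for the count of pair ratios alone.

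All 8 members were transcribed in both cell types, and 5 of them were higher in naive T cells. Gimap3 and Gimap4 differed most, by 3.23-fold and 2.97-fold between the means of the 6 T cell and 6 B cell libraries. Gimap9, Gimap6 and Gimap8 were 1.79-fold, 1.58-fold and 1.49-fold higher in T cells. Gimap1, Gimap5 and Gimap7 did not pass the test between the cell types. No member passed it as higher in B cells. Without female T cell 6 and male T cell 6 the same 5 members were called, with log2 differences of T over B cells of 1.62 (Gimap3), 1.55 (Gimap4), 0.79 (Gimap9), 0.72 (Gimap6) and 0.52 (Gimap8).

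**Figure D1:**
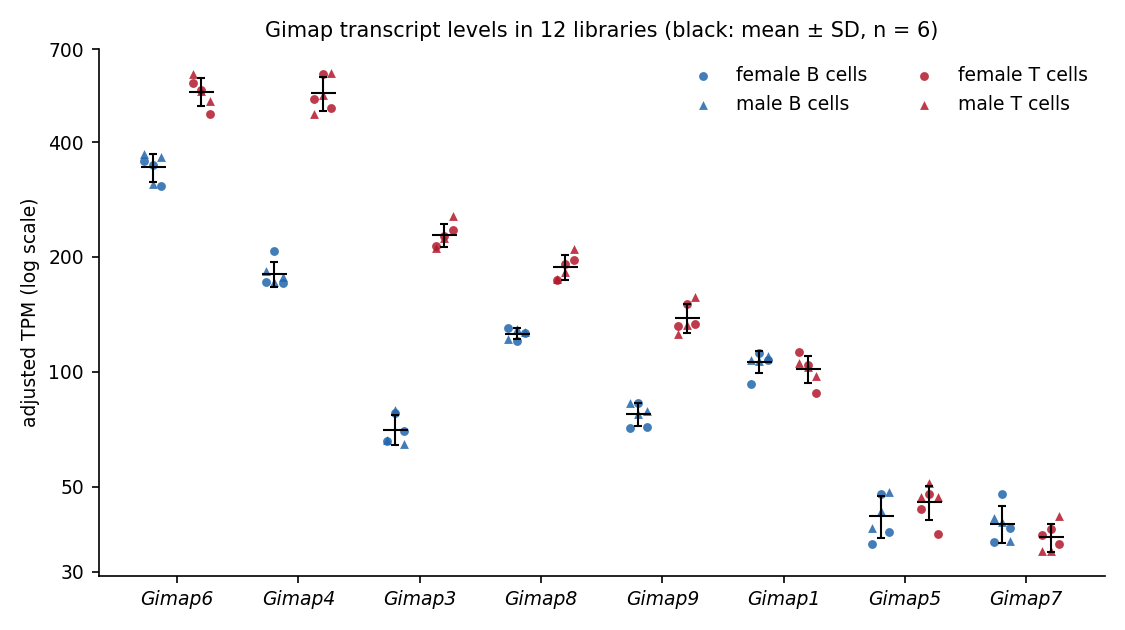
Adjusted TPM (log scale) of each member in each of 12 libraries, with circles for females, triangles for males, blue for B cells and red for T cells, and the black bars giving mean ± SD of 6 libraries. The red points lie above all blue points for Gimap6, Gimap4, Gimap3, Gimap8 and Gimap9, and the colours overlap for Gimap1, Gimap5 and Gimap7.

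Gimap3 encodes a protein described on mitochondrial membranes. Its adjusted TPM ran from 64.7 through a median of 68.0 to 79.5 in the 6 B cell libraries and from 211.6 through 225.8 to 256.0 in the 6 T cell libraries. Every T cell library was far above every B cell library, with male T cell 6 the highest. On the log2(adjusted TPM + 1) scale the difference of T over B cells was 1.68 (SE 0.07, limma, Benjamini-Hochberg adjusted p = 2.47e-10).

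Gimap4, a GTPase studied for its part in T cell death and cytokine secretion, reached 171.3, 174.6 and 206.7 adjusted TPM (lowest, median and highest) in B cells against 473.8, 524.5 and 604.9 in T cells. The groups did not overlap, and female T cell 5 and male T cell 6 were the highest. Its log2 difference was 1.56 (SE 0.08, limma adjusted p = 2.16e-09).

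For Gimap9 the B cell libraries ran from 71.3 through 78.3 to 83.1 adjusted TPM and the T cell libraries from 126.0 through 133.1 to 157.4. Gimap6, which binds a GABARAP protein of the autophagy machinery, ran from 306.1 through 352.8 to 373.2 in B cells and from 472.8 through 544.5 to 604.2 in T cells. For Gimap8, the large member with several GTPase domains, the corresponding values were 120.8, 126.7 and 130.3 in B cells against 174.0, 187.5 and 209.8 in T cells. All 3 genes were higher in each T cell library than in any B cell library. The log2 differences were 0.83 for Gimap9 (SE 0.07, limma adjusted p = 2.10e-07), 0.65 for Gimap6 (SE 0.08, limma adjusted p = 1.24e-05) and 0.57 for Gimap8 (SE 0.06, limma adjusted p = 2.14e-06).

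Gimap1, the member needed by mature B and T cells alike, ran from 92.7 through 107.7 to 112.3 adjusted TPM in B cells and from 88.0 through 103.9 to 112.7 in T cells. The ranges overlapped, although only 1 of the 6 T cell libraries lay above the B cell median. Female B cell 1 was the lowest B cell library, and female T cell 6 was the lowest of all. The log2 difference of T over B cells was -0.06, with a 95% interval from -0.21 to 0.09 (limma adjusted p = 0.433). Without female T cell 6 and male T cell 6 it was 0.0039 and again not called.

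Gimap5, a lysosomal member, ran from 35.5 through 41.1 to 48.5 adjusted TPM in B cells and from 37.5 through 47.0 to 51.1 in T cells. Gimap7, whose GTPase domain is known to act as a dimer, ran from 35.8 through 39.7 to 47.7 in B cells and from 33.9 through 36.4 to 41.9 in T cells. Both genes overlapped between the cell types. The log2 difference of Gimap5 was 0.12 (95% interval -0.07 to 0.31, limma adjusted p = 0.219) and that of Gimap7 was -0.11 (95% interval -0.29 to 0.06, limma adjusted p = 0.212). These intervals bound any difference of the 3 genes at the deposited scaling, and do not show equal levels.

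The 5 of 8 members called higher in T cells stand beside 41.6% of the 12520 tested genes called in that direction, and the 0 of 8 called higher in B cells beside 31.4%. The same 5 members had all 6 T cell libraries above all 6 B cell libraries, which held for 29.7% of tested genes. For these 5 the highest deposited upper bound of a B cell library also lay under the lowest deposited lower bound of a T cell library, for example 83.8 against 205.9 for Gimap3 and 134.6 against 170.6 for Gimap8. The median log2 difference of T over B cells was 0.61 over the 8 members and 0.09 over all tested genes.

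**Figure D2:**
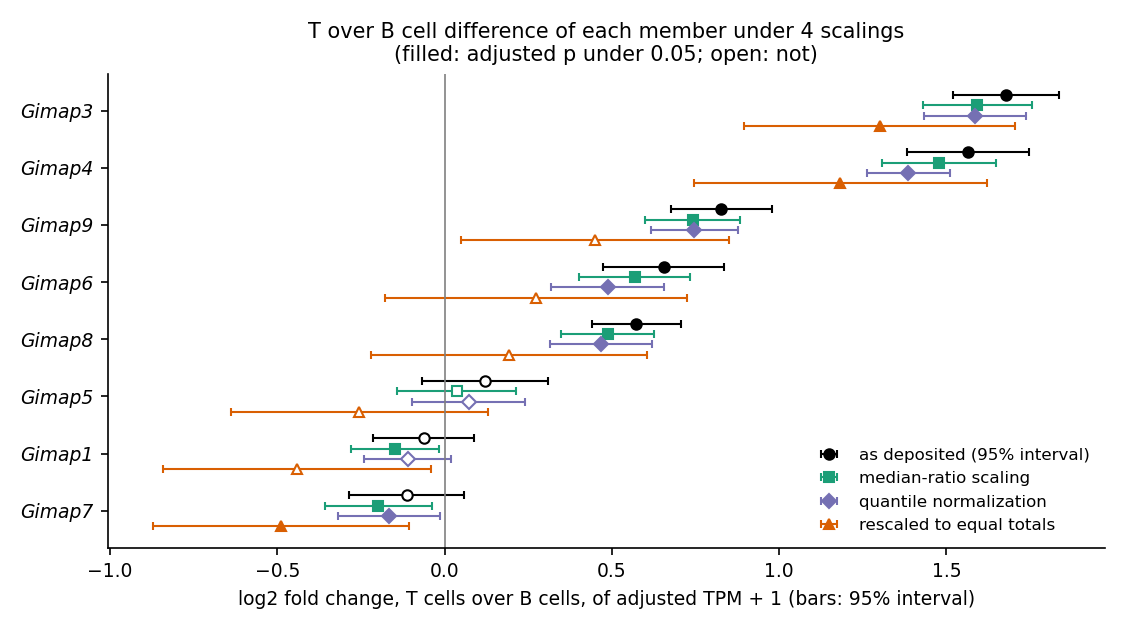
Log2 fold change of T over B cells for each member with its 95% interval (bars), for the values as deposited and under 3 other scalings between libraries, with filled marks for an adjusted p under 0.05 and open marks otherwise. Gimap3 and Gimap4 stay to the right and filled under each scaling, and the marks for equal totals lie furthest to the left.

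The scaling between libraries bears on the smaller differences. When each library was rescaled to a total of 1000000, all tested genes shifted to a median of -0.25 for T over B cells, with 1985 genes higher in T cells and 4812 in B cells instead of 5208 and 3926. On that scale only Gimap3 (1.30) and Gimap4 (1.18) were still called higher in T cells, and Gimap7 was called higher in B cells (-0.49, limma adjusted p = 0.025), while Gimap9, Gimap6 and Gimap8 lost their call. Gimap7 was also called higher in B cells under median-ratio scaling, under quantile normalization and without female B cell 1 and male T cell 6, and Gimap1 under median-ratio scaling.

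Markers of T cells were at a low level in the B cell pools beside the Gimap values. The summed level of the 5 T cell genes in B cells averaged 0.883% of that in T cells and was at most 1.13%, most of it from Lck (10.4 adjusted TPM), while Cd3d, Cd3e, Cd3g and Cd4 averaged at most 0.220. The members' levels in B cells were 31.0% (Gimap3) to 108.6% (Gimap7) of those in T cells. Endothelial cells also use Gimap genes, and their markers Cdh5 and Kdr averaged at most 0.357 adjusted TPM in either cell type, whereas Pecam1, which lymphocytes also carry, was at 92.0 in B cells against 91.4 in T cells. Other markers differed between the cell types at low levels. The monocyte and macrophage genes Lyz2 and Cd68 averaged 8.89 and 1.64 adjusted TPM in B cells but 0.795 and 0.906 in T cells (limma adjusted p = 2.41e-06 and 0.000234). The regulatory T cell genes summed on average to 1.03 in B cells but 7.94 in T cells, and Cd8b1, a gene of CD8 T cells, was at 0.0383 in B cells but 7.06 in T cells (limma adjusted p = 5.56e-12), whereas Cd8a was at 1.36 in B cells but 0.166 in T cells. The neutrophil and natural killer cell genes summed to at most 2.56 in any library, and the erythroid genes Hbb-bs and Hba-a1 varied from 0.558 to 195.9 in B cells and from 1.94 to 42.9 in T cells. The part of these cells in the Gimap differences was not tested. Fewer cells with a transcript and less transcript per cell cannot be told apart in these bulk libraries.

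Ratios of members inside a library do not depend on the scaling between libraries, and they showed that the make-up of the family differed between the cell types. Of the 28 pairs of members, 23 differed in their log2 ratio between B and T cells (exact two-sided permutation test of 6 against 6 libraries, Benjamini-Hochberg over the 28 pairs), and 20 of these had no overlap between the cell types. The number of differing pairs was also 23 without female T cell 6 and male T cell 6. The 28 pairs are built from 8 genes and are not independent of each other. The share among pairs of other genes was not computed. Since 9134 of 12520 tested genes were called between the cell types, such a count is not shown to be particular to this family. The smallest p that the test of all libraries can give is 0.00216. It was reached by all 20 pairs without overlap. These include each pairing of Gimap3 or Gimap4 with any of the other 6 members. They also include pairs with neither gene, such as Gimap1 with Gimap6 and Gimap7 with Gimap8.

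**Figure D3:**
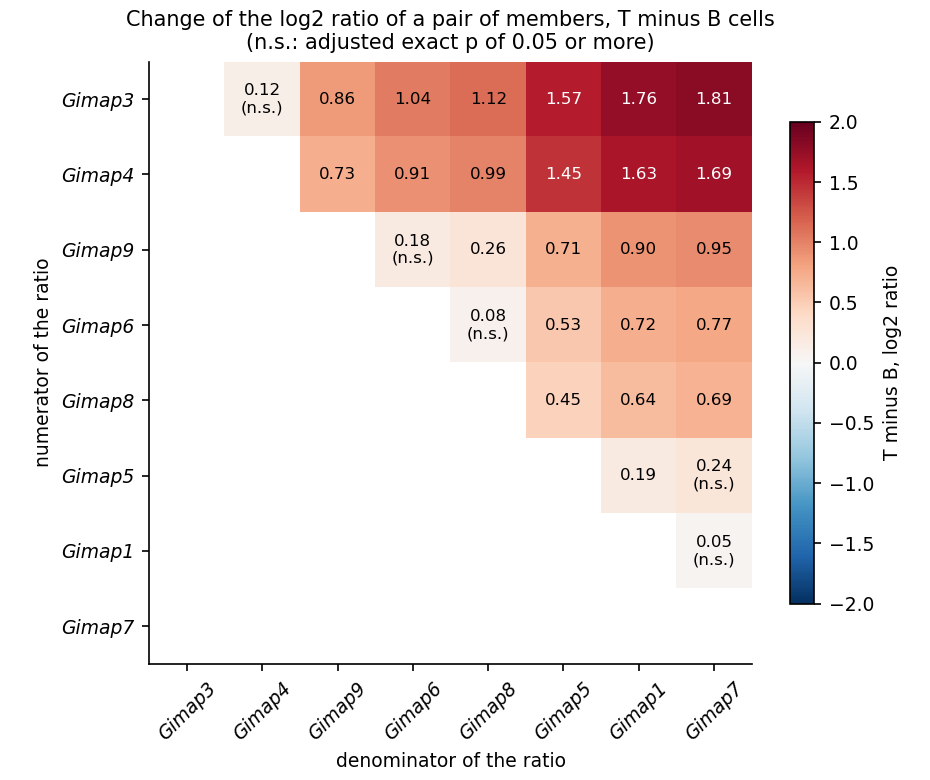
Change from B to T cells of the mean log2 ratio of each pair of members, row gene over column gene, with red for a higher ratio in T cells and n.s. for an adjusted exact p of 0.05 or more. The 2 top rows, Gimap3 and Gimap4, gained against each of the other 6 members, and the ratio of Gimap3 to Gimap4 changed by 0.12.

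Gimap3 and Gimap5, the closest pair in sequence, were not in a fixed ratio. The geometric mean ratio of Gimap3 to Gimap5 was 1.69 in B and 5.0 in T cell libraries, a change of 1.57 on the log2 scale (SD 0.18 in B cells against 0.19 in T cells, exact permutation p = 0.00216, adjusted p = 0.00303). In each T cell library Gimap3 exceeded Gimap5 by more than in any B cell library. Gimap4 and Gimap7, which lie 26.6 kb apart on the same strand, had a ratio of 4.52 in B cells against 14.5 in T cells.

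Gimap3 and Gimap4, in contrast, had a ratio of 0.391 in B cells against 0.426 in T cells (exact permutation p = 0.117, adjusted p = 0.126), and their libraries overlapped. The other pairs that missed the threshold were Gimap6 with Gimap8 (2.72 and 2.87, adjusted p = 0.492 by the exact permutation test), Gimap6 with Gimap9 (4.42 and 3.91, adjusted p = 0.107), Gimap5 with Gimap7 (1.05 and 1.24, adjusted p = 0.0707) and Gimap1 with Gimap7 (2.66 and 2.76, adjusted p = 0.541). The members thus fell by their ratios into Gimap3 with Gimap4, then Gimap9, Gimap6 and Gimap8, then Gimap5, Gimap1 and Gimap7, although Gimap8 with Gimap9 and Gimap1 with Gimap5 also passed the threshold (adjusted p = 0.00826 and 0.0395, exact permutation test).

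In B cells the order of the levels was Gimap6, Gimap4, Gimap8, Gimap1, Gimap9, Gimap3, Gimap5 and Gimap7. Neighbours in this order did not overlap across the 6 libraries except Gimap9 with Gimap3 and Gimap5 with Gimap7. In T cells the order was Gimap6, Gimap4, Gimap3, Gimap8, Gimap9, Gimap1, Gimap5 and Gimap7, with overlap between Gimap6 and Gimap4 and between Gimap5 and Gimap7. Gimap3 moved from the sixth place to the third. From the lowest member to the highest the means spanned 8.58-fold in B cells against 14.7-fold in T cells.

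The adjusted TPM of the 8 members summed to 986.9 ± 43.1 in B cells against 1818 ± 88.5 in T cells (SD, n = 6 each), a ratio of 1.84. As a percent of the total of its library the sum was lower in female B cell 1 (0.0961%) and male T cell 6 (0.133%) than in the rest of their cell types. On this scale the B cell libraries ran from 0.0961% through 0.141% to 0.166% and the T cell libraries from 0.133% through 0.204% to 0.216%, with a ratio of means of 1.41. The cell types overlapped there, since male T cell 6 lay under 4 of the 6 B cell libraries. Gimap6 made up 34.8% ± 2.16 of this sum in B cells against 29.8% ± 2.69 in T cells. Gimap4 took 18.3% ± 0.796 and 29.5% ± 1.82, so that it stood level with Gimap6 in T cells. Gimap1 took 10.8% ± 0.647 in B cells against 5.61% ± 0.451 in T cells. Gimap9 held 7.86% ± 0.271 and 7.62% ± 0.424, with overlapping libraries.

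**Figure D4:**
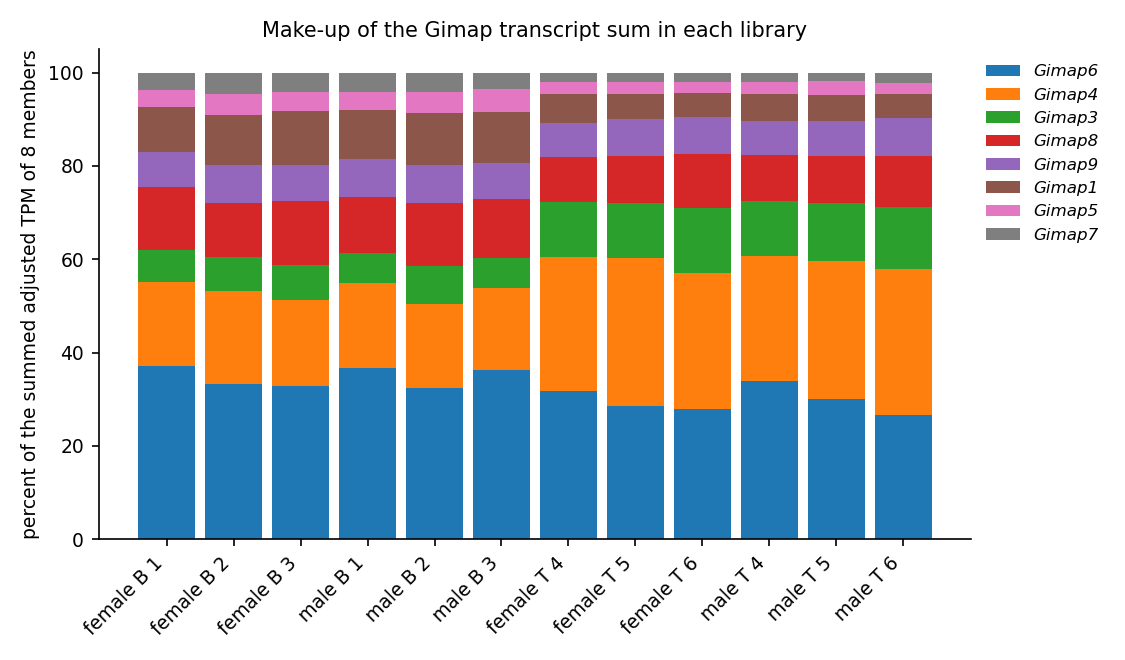
Percent of the summed adjusted TPM of the 8 members contributed by each, in each of 12 libraries. Gimap4 and Gimap3 take a larger part of each T cell bar than of any B cell bar, and Gimap1, Gimap5 and Gimap7 a smaller part.

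Neighbouring members were not alike throughout the cluster. Gimap3 and Gimap4, with the largest differences, lie 72.4 kb apart and on opposite strands. Gimap7, Gimap1 and Gimap5, which were not called, are consecutive members on the plus strand between Gimap6 and Gimap3.

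**Figure D5:**
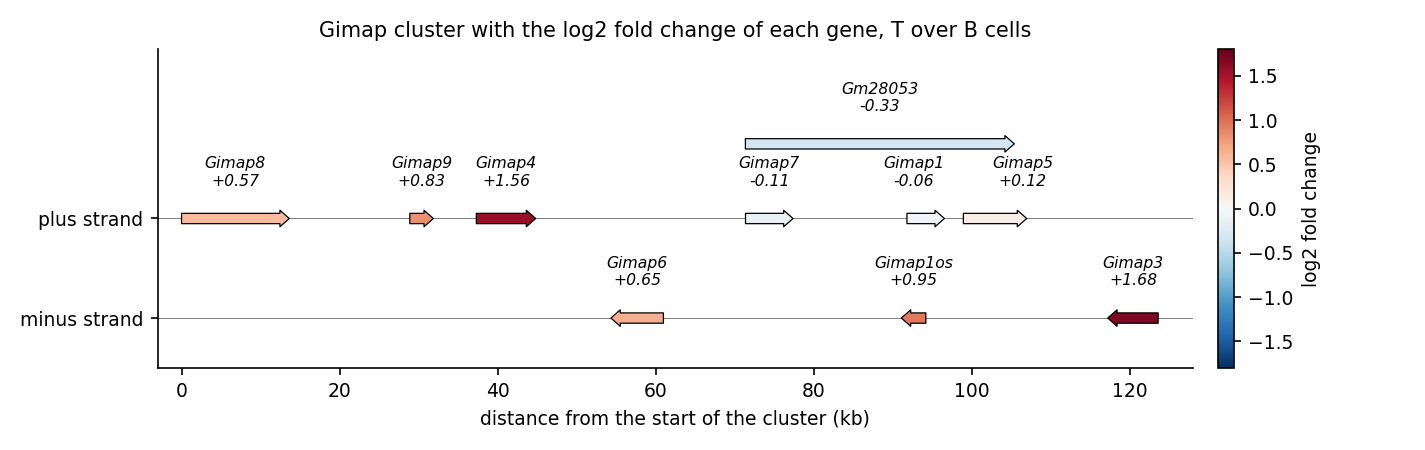
Map of the cluster to scale, with distance from its start in kb, arrows for the strand of each gene, and colour and number for the log2 fold change of T over B cells. The near-white arrows of Gimap7, Gimap1 and Gimap5 lie next to each other between the red arrows of Gimap6 and Gimap3.

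Gimap1os, an RNA annotated antisense to Gimap1 and overlapping its start, was the only other row of the table named for the family. Its adjusted TPM was 19.3 ± 2.59 in B cells against 38.1 ± 4.14 in T cells (SD, n = 6 each), with all T cell libraries above all B cell libraries. The log2 difference was 0.95 (SE 0.09, limma adjusted p = 6.22e-07), while Gimap1 itself was not called. Gimap1os kept its call under the 3 other scalings, at 0.58 to 0.91. The library kit keeps the strand, but whether the quantification used it is not given in the sources used here, so reads of the overlap may have been divided between Gimap1 and Gimap1os.

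Protein-coding genes within 250 kb on either side were low and changed in both directions. Of 17 such neighbours, 15 were in the table and 7 passed the filter. Krba1 (log2 difference 1.06), Zfp467 (1.23) and Zfp775 (0.46) were higher in T cells, and Lrrc61 (-0.62), Repin1 (-1.51), Tmem176b (-0.75) and Tmem176a (-0.67) were higher in B cells, and the highest limma adjusted p of these was 0.00104. Zfp775 lost its call with libraries at equal totals (0.22). The highest value of any neighbour in any library was 11.0 adjusted TPM, for Lrrc61, under the lowest value of any member (33.9, Gimap7).

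The promoters of the 2 members with the largest differences and of 2 that were not called are printed to allow their comparison. Each line runs from 250 bases before to 50 bases after a RefSeq start (GRCm38.p6), with matches to AGGAAG (the ETS family), TGTGGT (RUNX) and CTTTGA (TCF and LEF), on either strand, in capitals.

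Gimap3, chr6:48770802-48771101, minus strand: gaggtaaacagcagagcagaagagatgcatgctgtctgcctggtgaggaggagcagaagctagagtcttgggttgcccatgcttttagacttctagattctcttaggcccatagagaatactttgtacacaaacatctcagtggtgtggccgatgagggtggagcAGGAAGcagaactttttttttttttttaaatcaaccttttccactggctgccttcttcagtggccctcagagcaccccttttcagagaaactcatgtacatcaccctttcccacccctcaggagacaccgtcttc
Gimap4, chr6:48684328-48684627, plus strand: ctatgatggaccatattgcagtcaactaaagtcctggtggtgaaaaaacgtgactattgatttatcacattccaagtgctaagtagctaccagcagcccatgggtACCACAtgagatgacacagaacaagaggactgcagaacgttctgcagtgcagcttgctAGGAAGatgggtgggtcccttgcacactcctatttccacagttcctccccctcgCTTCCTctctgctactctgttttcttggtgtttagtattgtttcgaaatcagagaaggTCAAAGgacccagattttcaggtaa
Gimap5, chr6:48745947-48746246, plus strand: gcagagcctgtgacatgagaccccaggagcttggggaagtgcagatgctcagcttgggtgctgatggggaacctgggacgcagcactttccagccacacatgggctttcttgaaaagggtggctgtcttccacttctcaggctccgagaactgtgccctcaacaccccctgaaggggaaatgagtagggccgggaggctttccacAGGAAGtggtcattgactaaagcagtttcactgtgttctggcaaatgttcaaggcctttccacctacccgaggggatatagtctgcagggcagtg
Gimap7, chr6:48718371-48718670, plus strand: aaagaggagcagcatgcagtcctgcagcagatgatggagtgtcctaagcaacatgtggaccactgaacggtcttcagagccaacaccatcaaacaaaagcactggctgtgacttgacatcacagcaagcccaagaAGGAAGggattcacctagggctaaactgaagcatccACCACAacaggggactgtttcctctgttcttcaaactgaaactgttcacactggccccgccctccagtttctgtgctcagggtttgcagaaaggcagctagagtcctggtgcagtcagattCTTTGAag

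Matches in these 4 promoters did not overlap each other. Gimap3 and Gimap5 each had 1 ETS match and none of the other 2 motifs. Gimap4 had 2 ETS matches, 1 RUNX match and 1 TCF and LEF match, and Gimap7 had 1 of each. In these 4 windows the motif counts were the same for Gimap3, which was called, and Gimap5, which was not. Gimap1, also not called and not printed, had 2 ETS matches, 1 RUNX match and 0 TCF and LEF matches.

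Over the whole family the table of promoters held 9 windows, of which the 2 of Gimap8 overlap. ETS matches occurred in 7 of 9, against 35.4% of 32851 promoters of the same length, RUNX matches in 3 of 9 against 16.8%, and TCF and LEF matches in 2 of 9 against 16.0%. The E-box CANNTG occurred in 7 of 9, against 72.3%. These windows held 2 to 8 CpG dinucleotides each, with a median of 7 over all promoters. Such matches describe letters in the window and are not evidence of binding.

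No member passed the test between females and males. In B cells the log2 differences of females over males ran from -0.11 (Gimap5) to 0.05 (Gimap7), and 0 of 8 members were called by limma, beside 0.144% of tested genes. In T cells they ran from -0.17 (Gimap5) to 0.03 (Gimap7), and again 0 of 8 were called, beside 0.104%. The sex effect differed between B and T cells for 0 of 8 members and for 0% of tested genes. No member reached an unadjusted limma p of 0.05 in any of these comparisons. In the last of them 295 of 12520 tested genes did, a share below 0.05. The lack of members among them therefore does not set the family apart from other genes.

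The largest sex difference was that of Gimap5 in T cells. Its adjusted TPM was 43.7, 48.0 and 37.5 in the female libraries and 47.0, 51.1 and 47.0 in the male libraries. Female T cell 6 was the lowest and the sexes overlapped, while by shared number the female library was the lower in 3 of 3 pairs. The 95% interval of the difference ran from -0.43 to 0.095 (log2, limma adjusted p = 1.00), and with the replicate number as a block from -0.40 to 0.06 (adjusted p = 1.00). Over all 8 members the 95% intervals lay between -0.37 and 0.30 in B cells and between -0.43 and 0.27 in T cells. They bound any sex difference at the deposited scaling, and do not show equal levels.

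With the mean of each of the 4 groups removed, some members still varied together across the 12 libraries. Pearson's r was 0.958 for Gimap4 and Gimap9, 0.848 for Gimap7 and Gimap9, and 0.803 for Gimap4 and Gimap7. It was -0.700 for Gimap3 and Gimap6 and -0.681 for Gimap1 and Gimap8. These values share the library and its scaling and are given as a description.

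The genes most like the mean member profile over the 12 libraries were Slc35d2, a transporter of nucleotide sugars (r = 0.996), Thap3 (0.995), Fntb, a subunit of protein farnesyltransferase (0.994), Ppp2r5c, a regulatory subunit of protein phosphatase 2A (0.993), and Trpc4ap (0.991). Slc35d2 averaged 5.89 adjusted TPM in B cells against 10.2 in T cells. After the group means were removed the closest were Gm10036 (0.919), Pde6d (0.905), Rtn4rl1 (0.900), Cep72 (0.898) and Slc35d2 (0.896). Slc35d2 was the only gene in both lists of 5. Both lists are the top of a ranking of all tested genes over 12 libraries, so high r values can arise from the ranking alone. The first also follows the difference between cell types, and 5208 of 12520 tested genes were called higher in T cells. The 2 rankings share the deviations within groups. The likeness was not tested and is given as a description.

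Gene lists around the family's functions, 4 in all, were counted in the same fit. Of 14 genes of the GABARAP and LC3 autophagy machinery, to which Gimap6 is linked, 7 were higher in T cells and 3 in B cells, with a median log2 difference of T over B cells of 0.16, against 0.09 over all tested genes. Gabarapl2, the partner described for Gimap6, was at 42.1 ± 3.64 adjusted TPM in B cells against 52.7 ± 4.36 in T cells (log2 difference 0.32, limma adjusted p = 0.00124). Gabarap was at 94.7 ± 10.6 and 80.4 ± 9.27 (log2 difference -0.24, limma adjusted p = 0.0346). With libraries at equal totals none of the 14 was called higher in T cells and 3 were higher in B cells, with a median of -0.22, and Gabarapl2 was at -0.06.

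Among 10 genes of resting lymphocyte survival and death, 4 were higher in T cells and 2 in B cells, with a median of 0.14. Il7r, the receptor for the survival cytokine IL-7, was at 0.419 ± 0.220 in B cells against 217.9 ± 7.28 in T cells. Bcl2, Bcl2l1 and Bcl2l11 were also higher in T cells, with log2 differences of 0.56, 1.02 and 0.34, of which Bcl2 (0.19) and Bcl2l11 (-0.02) lost their call with libraries at equal totals. For the whole list the counts at equal totals were 2 higher in T cells and 3 in B cells, with a median of -0.23. The antiapoptotic Mcl1 was higher in B cells (313.5 ± 17.3 against 186.0 ± 26.6, limma adjusted p = 8.80e-06). Bak1 was the other gene higher in B cells, with a log2 difference of -0.36 (limma adjusted p = 0.000606).

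Septins are cytoskeletal GTPases of related fold, and 7 of the 13 in the table were tested. Sept1, Sept6, Sept7 and Sept9 were higher in T cells, with Sept9 at 20.7 ± 1.64 in B cells against 115.6 ± 8.30 in T cells, and Sept10 and Sept11 were higher in B cells. The median log2 difference was 0.76, and with libraries at equal totals it was 0.38, with 2 genes higher in T cells and 3 in B cells. Of 14 immunity-related and guanylate-binding GTPases, interferon-inducible proteins of host defence, 10 were higher in T cells and 2, Gbp3 and Gbp5, in B cells, with a median of 1.73, and these counts were the same under the 3 other scalings. Tgtp1 (log2 difference 4.56) and Iigp1 (4.02) differed most in this list, by more than any member of the GIMAP family, though Tgtp1 and Tgtp2 are near-identical copies whose reads may be divided between them.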

How the data were processed

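RNA was sequenced from 12 libraries of spleen lymphocytes, 3 from each sex and cell type. Per the labels, RNA of sorted cells was freed of ribosomal RNA, spiked with synthetic transcripts and made into strand-specific libraries, although some label fields read genomic DNA. The labels name Trim Galore, FastQC, STAR and the mm10 build. The quantification tool, the way values were adjusted and the level of the intervals are not given in the sources used here. The table deposited by the authors holds a signal per gene, named adjusted TPM, as a point estimate with lower and upper bounds. Its values are not counts, none is 0 and the depth is unknown, so precision was read from those bounds. For the members the upper bound was, at the median, 1.04 (Gimap6) to 1.13 (Gimap5) times the lower.

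Groups came from the labels. Values were taken as log2(adjusted TPM + 1) and fitted in limma 3.58.1 (R 4.3.3) with a mean-variance trend and 1 coefficient for each of the 4 groups, for the 12520 genes at 1 or more in at least 3 libraries. Fold changes are on that scale, which understates changes of low genes. P-values were adjusted by Benjamini-Hochberg over all tested genes, with a threshold of 0.05. Ratios of 2 members used no pseudocount and an exact two-sided permutation test. Both tests were checked on simulated data. The rule for named genes took all 8 members, other rows named for the family, coding genes within 250 kb, the 5 genes most like the mean member profile by Pearson's r, and lists of autophagy, survival, septin and immunity GTPase genes and of cell type markers. Gm28053 and the 50-base comparison were added after values were seen. The members and lists were chosen with earlier results of these data known. Sequences came from GENCODE M21 and from RefSeq promoters, in which all 8 members were matched, and coding sequences were aligned with Biopython 1.88.

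Female and male libraries share replicate numbers. In T cells the same-numbered libraries deviated together from their group means (r = 0.721, 0.548 and 0.521 over tested genes), and in B cells they did not (r = -0.169, -0.0382 and -0.337). The labels name no shared mouse, day or batch. They do carry an unexplained digit that is constant within each group and differs between the sexes in both cell types. Whatever it marks cannot be told apart from sex within a cell type. The limma and permutation tests between B and T cells used no block for the replicate number. Their p-values do not allow for what same-numbered T cell libraries share. Alternatives were another pseudocount and filter, 3 other scalings, no trend, the deposited bounds, and single sexes or cell types. A replicate block and leaving out each library in turn were further, separate alternatives. Leaving out 2 libraries with much Yam1, or 2 with the most regulatory T cell marker RNA, was chosen after seeing the data. The spike-ins were not analysed here.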

Additional observations from a re-analysis of the deposited data

Results flagged for a closer look

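In each cell type the 6 libraries of each member were examined for a value far from the others, by the gap of the highest or lowest library to its neighbour over the whole range, and 2 of 16 sets of 6 libraries passed Dixon's 95% critical value, where chance gives about 1 in 20. Gimap1 in female B cell 1 was the lowest of the B cell libraries at 92.7 adjusted TPM, with a gap of 0.728 of the range. Gimap5 (35.5), Gimap7 (35.8) and Gimap9 (71.3) also had their lowest B cell value in that library, and Gimap8 (130.3) its highest. Yam1 took 32.16% of the total in that library. Gimap4 in female B cell 2 was the highest of the B cell libraries at 206.7 adjusted TPM, with a gap of 0.644 of the range. Gimap7 (47.7), Gimap1 (112.3) and Gimap9 (83.1) also had their highest B cell value there. Gimap3 and Gimap5 were high there but not highest, at 77.9 and 47.9, while Gimap8 had its lowest B cell value there (120.8). The part of library make-up in either value was not tested.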

How the results depend on the processing

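The count of members called between B and T cells was 5, and lay between 5 and 7 in 24 of 25 alternatives. It was 3 when each library was rescaled to a total of 1000000, with 2 higher in T cells and 1 in B cells; there the log2 difference of T over B cells was -0.25 for Gimap5, 0.27 for Gimap6, 0.19 for Gimap8 and 0.45 for Gimap9, none of them called. Under median-ratio scaling it was 7, since Gimap1 (-0.15) and Gimap7 (-0.20) were called higher in B cells. Gimap7 was called alone in that direction by quantile normalization (-0.17) and, in an alternative chosen after seeing the data, without female B cell 1 and male T cell 6 (-0.21). A second alternative chosen after seeing the data left out female T cell 6 and male T cell 6, and changed no call of a member, with Gimap1 at 0.0039. Over all genes, 9134 were called between B and T cells, 24591 with no filter (fitting all 41128 genes) and 6797 with equal totals. Those higher in T cells numbered 5208 as deposited and 1985 at equal totals. Gimap3 and Gimap4 were called higher in T cells in all 25 alternatives, from 1.30 to 1.72 and from 1.18 to 1.61. Leaving out each library in turn left the count at 5, and 22 to 24 of the 28 pair ratios past the threshold. No alternative called a member between the sexes or for the difference between sex effects, and the replicate block, which the shared numbers support in T cells alone, gave 0 calls in each of these. Without read counts, the depth behind a value cannot be given, and the deposited bounds do not cover the spread between pools.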
